A study of Mus musculus with 12 samples.

Results

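Fgf6, Fgf23 and Ngfr are 3 genes of growth factor signalling that were chosen by symbol, and each has 1 row among the 27942 genes analysed. None of them was expressed at an appreciable level on day 7 of C2C12 differentiation. Fgf6 and Fgf23 were listed at 0 FPKM in all 6 libraries, and Ngfr lay between 0 and 0.142 FPKM, which amounts to 24 reads in the 6 libraries together. FPKM values are corrected for the length of a gene and the size of the library, so levels can be set side by side between genes.

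C2C12 is an established mouse myoblast line that forms multinucleated myotubes in low serum. All cells were first cultured to 80% density in 10% fetal bovine serum and then kept in 2% horse serum for 7 days. The control group was untreated, and the other group received 25 µmol/L 4-octyl itaconate (OI), an ester of the metabolite itaconate that enters cells. Both groups hold 3 libraries, and nothing in the labels says that these came from separate cultures, so the spread between them may be technical.

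FGF6 is a secreted fibroblast growth factor of the skeletal muscle lineage that signals through FGF receptor tyrosine kinases and has been studied in myoblast growth and muscle regeneration. FGF23 is an endocrine member of the same family, made mainly by osteocytes, that acts on the kidney with the co-receptor Klotho to control phosphate. Ngfr encodes the p75 neurotrophin receptor, a member of the TNF receptor family that binds neurotrophins and their precursors and is present in neural crest derivatives, in Schwann cells and in some muscle precursor cells.

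The promoters of the 3 genes are shown as the sequences before their annotated starts. A value per gene does not say from which start or exon the reads came. Each line gives bases 250 to 38 before the RefSeq transcription start (GRCm38.p6, 213 bases), read on the strand of the gene. Capitals mark E-boxes, CANNTG on either strand, the core motif of the myogenic bHLH factors. The windows are chr6:127015292-127015504 (plus strand) for Fgf6, chr6:127072652-127072864 (plus strand) for Fgf23 and chr11:95587736-95587948 (minus strand) for Ngfr.
Fgf6: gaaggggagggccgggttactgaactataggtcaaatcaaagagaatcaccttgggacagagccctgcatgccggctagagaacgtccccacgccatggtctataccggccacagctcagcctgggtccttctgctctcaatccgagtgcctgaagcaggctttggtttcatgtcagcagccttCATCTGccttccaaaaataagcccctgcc
Fgf23: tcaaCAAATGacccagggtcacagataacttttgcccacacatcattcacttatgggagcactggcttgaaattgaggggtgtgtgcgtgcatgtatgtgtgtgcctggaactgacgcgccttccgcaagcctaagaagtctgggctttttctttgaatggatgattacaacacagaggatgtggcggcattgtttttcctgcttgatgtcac
Ngfr: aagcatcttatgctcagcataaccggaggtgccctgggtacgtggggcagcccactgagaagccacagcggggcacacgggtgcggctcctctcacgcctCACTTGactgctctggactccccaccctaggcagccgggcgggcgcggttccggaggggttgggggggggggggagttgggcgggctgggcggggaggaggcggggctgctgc

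Each of the 3 windows holds 1 E-box, as do 61.1% of the 32851 promoter windows of this length in the RefSeq table, counting those with 1 or more. The Ngfr window is richer in G and C (70.9%, with 14 CpG) than the Fgf6 window (55.4%, 6 CpG) and the Fgf23 window (47.9%, 5 CpG). Over all windows the median was 51.6% G and C and 4 CpG. A match is a description of the letters and not evidence of a binding site.

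The smallest level that could have been seen depends on depth and gene length. Library sizes recovered from the FPKM values ran from 24441000 to 36274000 reads. Fgf6 (ENSMUSG00000000183, chromosome 6, 127015586 to 127028187, GRCm38, 3 exons, 4657 bases) was listed at 0 in control replicates 1 to 3 and in OI replicates 1 to 3. A count of 0 allows up to 3 reads, which is between 0.0178 and 0.0264 FPKM per library, 0.00758 FPKM over the control group and 0.00685 FPKM over the OI group. Fgf23 (ENSMUSG00000000182, chromosome 6, 127072902 to 127081408, 3 exons, 1814 bases) was likewise listed at 0 in every library. Its shorter transcript gives a higher limit, between 0.0456 and 0.0677 FPKM per library, 0.0195 FPKM over the control group and 0.0176 FPKM over the OI group. With both groups at 0 there is no fold change and no test for either ligand, and a difference between groups under these limits was not detectable at this depth. These limits cover counting error only, and they would be higher if both ends of a sequenced fragment were counted separately.

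Ngfr (ENSMUSG00000000120, chromosome 11, 95568818 to 95587735, 6 exons, 3446 bases) was at 0.142 FPKM in control replicate 1, 0.0380 FPKM in control replicate 2 and 0.0387 FPKM in control replicate 3. In OI it was at 0 FPKM in replicate 1, 0.0160 FPKM in replicate 2 and 0.0226 FPKM in replicate 3. The FPKM values correspond to 12, 4 and 4 reads in the control libraries and to 0, 2 and 2 reads in the OI libraries. Every control library thus lay above every OI library, control replicate 1 lay far above the other two, and all OI libraries lay below the level of 3 reads. That level is the limit for a count of 0, and it does not tell a count of 4 from a count of 2.

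**Figure D1:**
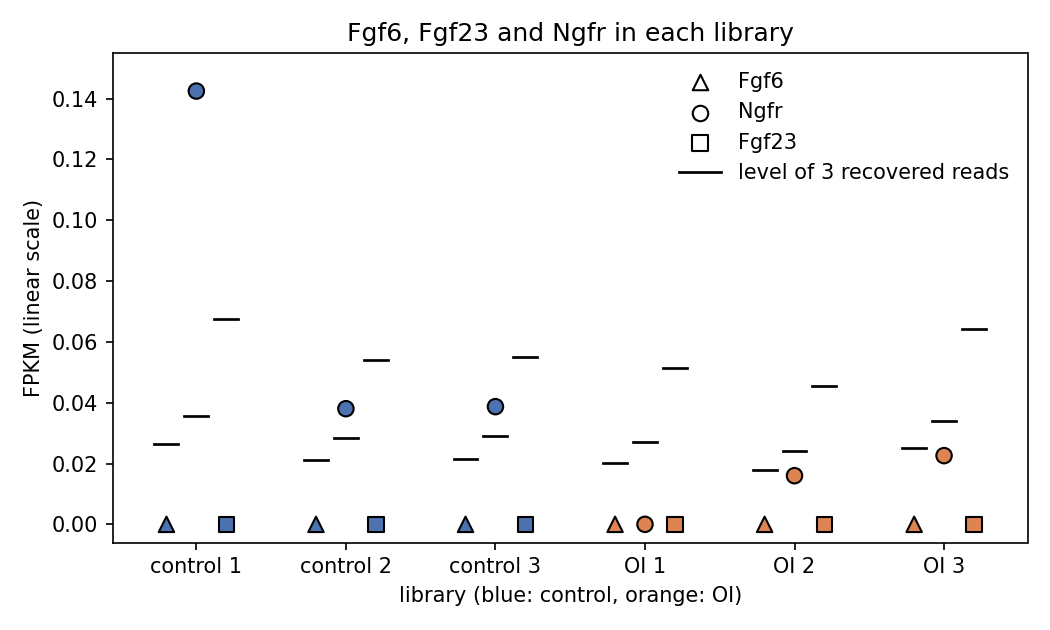
FPKM of Fgf6 (triangles), Ngfr (circles) and Fgf23 (squares) in each of the 6 libraries, control in blue and OI in orange, with short black lines at the FPKM that 3 recovered reads would give for that gene and library. Fgf6 and Fgf23 sit at 0 throughout, and Ngfr passes its line in the 3 control libraries only, with 0.142 FPKM in control replicate 1 as the highest value. The lines give the limit for a count of 0 and are not a test of the groups.

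The mean of Ngfr was 0.0731 ± 0.0601 FPKM (SD, n = 3) in the control group. With OI it was 0.0129 ± 0.0116 FPKM (SD, n = 3), which is 5.68-fold lower. The exact two-sided permutation test over the 6 libraries gave p = 0.1, the smallest that 3 against 3 allows, so this design cannot place Ngfr past a threshold of 0.05. Ngfr had no FPKM of 1 or more in any library and so was not among the 1737 genes tested across the table. In that test 48 genes, or 2.76%, passed an adjusted limma p of 0.05. With every gene above 0 in the fit, the log2 difference of Ngfr was -0.08 ± 0.05 (SE) on the log2(FPKM + 1) scale, and its limma adjusted p was 0.734. The added 1 hides most of the change at this level: with a pseudocount of 0.1 the difference was -0.57.

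Control replicate 1 supplied 12 of the 20 control reads of Ngfr. Without that library the control mean was 0.0384 FPKM, 2.98-fold above the OI mean. As reads per library size the ratio of control to OI was 5.54 with all libraries (20 against 4 reads, exact 95% interval 1.85 to 22.3). It was 3.11 without control replicate 1 (8 against 4 reads, 0.833 to 14.1), an interval that includes equal rates. These intervals cover counting error only and compare these libraries, not the conditions.

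Control replicate 1 also stood apart in the rest of the table. The rRNA-derived locus AY036118 reached 70761 FPKM in this library, against 691 to 2450 FPKM in the others, and the nuclear long non-coding RNA Malat1 was at 1769 FPKM against 312 to 429 FPKM. It had the smallest library size, 24441000, and yet the most genes above 0, 7891 against 6781 to 7323. Of these, 761 were above 0 in that library only, against 299 to 395 such genes in each of the other libraries. The part of this library's composition in the Ngfr value was not tested.

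The same order of the libraries was counted in genes as weakly covered as Ngfr. Of 192 protein-coding genes with 10 to 50 recovered reads over the 6 libraries, 28 (14.6%) had every control library above every OI library, and 6 (3.12%) had the opposite order. Control replicate 1 was the highest library for 55 of the 192 (28.6%), against 10.4% to 19.3% for each other library. Ngfr was 1 of the 28.

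The recovered read numbers of Ngfr, 12, 4, 4, 0, 2 and 2, are all even. In long intergenic and antisense RNA genes a read number of 2 occurred 1214 times and a read number of 1 only 456 times, and in protein-coding genes 251 and 215 times. In processed pseudogenes the order was the other way round, with 1279 values of 2 and 2520 values of 1. No source used here says whether both ends of a sequenced fragment were counted separately. If they were, Ngfr would rest on 10 fragments in control and 2 in OI, and the 95% interval of the same ratio would be 1.18 to 52.0. Without control replicate 1 it would rest on 4 against 2 fragments, with an interval of 0.446 to 34.4, which includes equal rates.

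**Figure D2:**
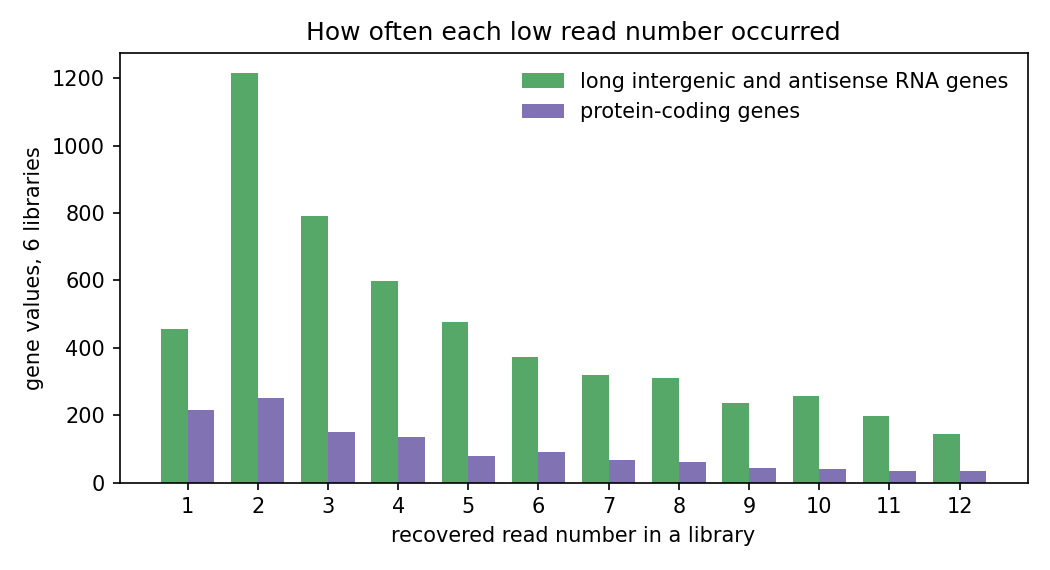
Number of gene values over the 6 libraries (vertical axis) at each recovered read number from 1 to 12 (horizontal axis), for long intergenic and antisense RNA genes (green) and for protein-coding genes (purple). In green the bar at 2 reads (1214 values) is higher than the bar at 1 read (456 values), and in purple the same pair is 251 and 215.

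Fgf6 and Fgf23 are neighbours on chromosome 6, 44715 bases apart on the same strand, and the cyclin gene Ccnd2 follows 43754 bases beyond the end of Fgf23 on the opposite strand. Ccnd2, cyclin D2, which drives entry into the cell cycle, had levels of 23.6, 26.0 and 23.9 FPKM in the 3 control libraries. In OI replicates 1 to 3 it had levels of 29.0, 28.3 and 27.5 FPKM. The groups did not overlap, with means of 24.5 ± 1.31 and 28.3 ± 0.762 FPKM (SD, n = 3 each). Its log2 difference was 0.20 ± 0.07 (SE), and its limma adjusted p of 0.228 did not pass the threshold. Gm43126, an antisense gene that shares exonic bases with Ccnd2, was between 20.7 and 23.5 FPKM in control and between 22.8 and 26.8 FPKM in OI (limma adjusted p = 0.378), and without a stated strand its reads cannot be told apart from those of Ccnd2.

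The other analysed genes near Fgf23 were at low levels. Platr31, an antisense RNA gene 18889 bases beyond the end of Fgf23, was at 0.0837 FPKM in control replicate 1 and at 0 in the other 5 libraries. 9330179D12Rik, an antisense RNA gene at the far side of Ccnd2, was above 0 in all 6 libraries but between 0.0419 and 0.167 FPKM. Of the 7 analysed genes within 100 kb of Fgf6, Fgf23 among them, 2 were above 0 in at least 3 libraries, and both were at the Ccnd2 locus. Of the 8 within 100 kb of Fgf23, Fgf6 among them, 3 were. Within 100 kb of Ngfr 2 genes were analysed. Gm11528 was listed at 0 in every library, and Gm26830, a long intergenic RNA gene 82217 bases before the start of Ngfr, was at 0.453 FPKM in control replicate 1, at 0 in 3 libraries, and at 0.0555 and 0.157 FPKM in OI replicates 2 and 3. In both Ngfr and Gm26830 control replicate 1 was the highest library. No gene of GENCODE release M21 shares exonic bases with Fgf6, Fgf23 or Ngfr.

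**Figure D3:**
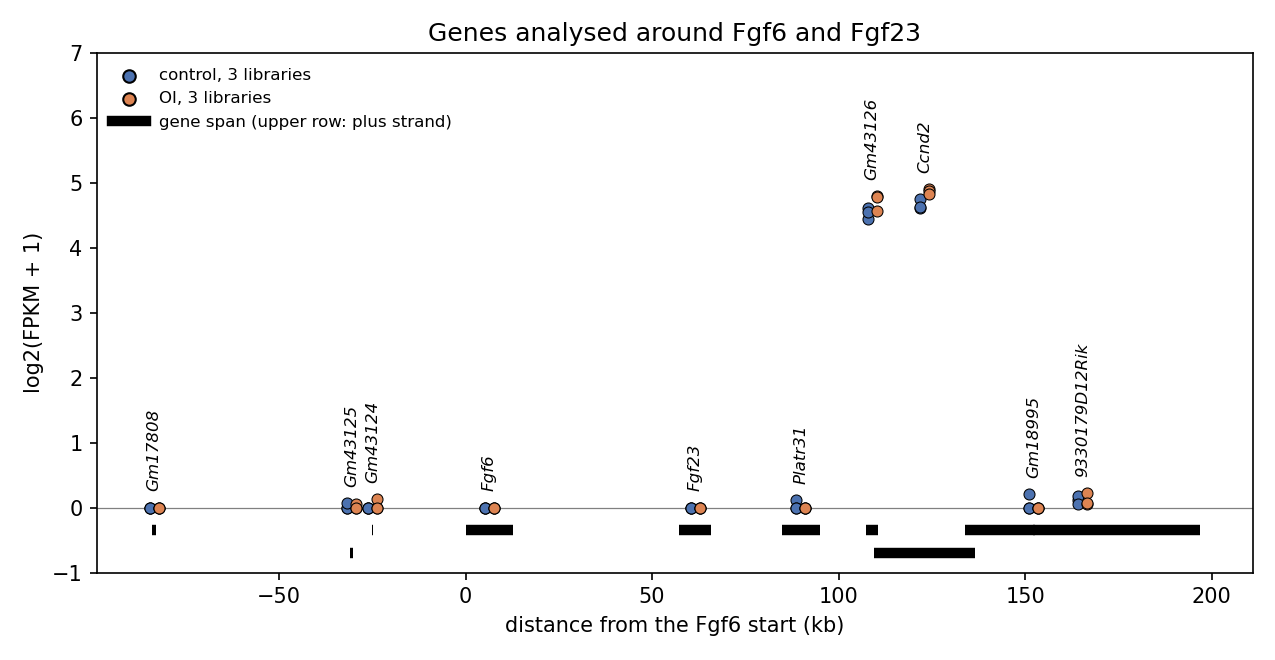
Level as log2(FPKM + 1) (vertical axis) of the analysed genes around Fgf6 and Fgf23 by distance from the Fgf6 start in kb (horizontal axis), with each control library in blue, each OI library in orange and gene spans as black bars below 0. Fgf6 and Fgf23 lie at 0 in all libraries, and Ccnd2 and its antisense gene Gm43126, all between 20.7 and 29.0 FPKM, stand far above the rest.

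Among the analysed genes with the lowest identifiers the 3 genes belong to the weakly covered part. Of the 59 protein-coding genes with identifiers up to ENSMUSG00000000320, 30 had a mean of 1 FPKM or more over the 6 libraries, 6 had a mean of 0.1 to 1 FPKM, 13 were above 0 with a mean under 0.1 FPKM, and 10 (16.9%) were listed at 0 in every library. Over all 2468 protein-coding genes analysed, most of them numbered from ENSMUSG00000083778 on, 1490 (60.4%) were at 0 in all 6 libraries. Ngfr held rank 39 with a mean of 0.0430 FPKM. It lay next to Tbx2, a T-box transcription factor, at 0.0774 FPKM, and Ins2, an insulin gene, at 0.0254 FPKM. Besides Fgf6 and Fgf23, the genes at 0 included Th, the tyrosine hydroxylase of catecholamine synthesis, Pbsn, the prostate protein probasin, Scnn1g, an epithelial sodium channel subunit, and Glra1, a glycine receptor subunit. Ckmt1, Igsf5, Itgb2l and Zfy2 were at 0 as well. At rank 2 of the 59 genes, Sdhd, a subunit of succinate dehydrogenase, was between 74.9 and 83.4 FPKM.

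**Figure D4:**
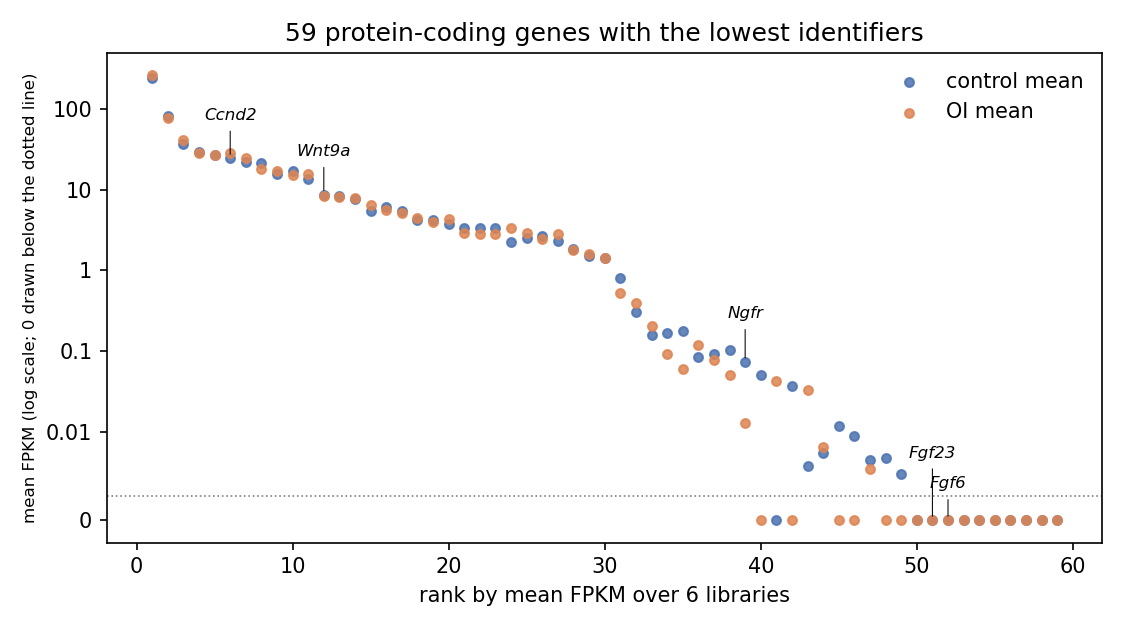
Mean FPKM in control (blue) and OI (orange) on a log scale, with values of 0 drawn below the dotted line, for 59 protein-coding genes ordered by their mean over the 6 libraries. Ngfr is at rank 39, with its OI mean (0.0129 FPKM) below its control mean (0.0731 FPKM), and Fgf6 and Fgf23 are among the 10 genes at 0 in both groups.

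The other genes of these pathways were largely not analysed here. Of 22 FGF ligands 2 had a row, Fgf6 and Fgf23 themselves, and of 12 FGF receptors and co-receptors none had. Of 23 genes of FGF signalling and its targets only Ccnd2 was present, and it did not pass the test. None of 4 neurotrophins was present, and of 18 neurotrophin receptors and adaptors only Ngfr was. The other neurotrophin receptors and the receptors through which FGF6 and FGF23 act therefore have no value beside the 3 genes. Among 17 other growth factors and receptors 3 had a row, and 1 of the 2 tested passed, against 2.76% of all 1737 genes tested.

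That gene was Gdf1, a TGF-beta family ligand whose locus also encodes the ceramide synthase Cers1. The value per gene does not say from which transcript of this locus the reads came. Gdf1 was at 2.82, 2.36 and 1.51 FPKM in control and at 0.138, 0.102 and 0.433 FPKM in OI. It fell by 1.39 ± 0.19 (SE) on the log2(FPKM + 1) scale (limma adjusted p = 0.0233). The call was lost without any 1 library but control replicate 3 (limma adjusted p from 0.0516 to 0.1), and its difference was -2.94 with a pseudocount of 0.1 and -0.46 with a pseudocount of 5. Wnt9a, a secreted Wnt ligand, was between 7.92 and 8.85 FPKM in all 6 libraries (limma adjusted p = 0.85). Wnt3, another Wnt ligand, was at 0.0266 FPKM in control replicate 1, or 2 reads, and at 0 in the other 5. In order of mean level per length, Ccnd2 was followed by Wnt9a, Gdf1, Ngfr and Wnt3, and Fgf6 and Fgf23 were at 0.

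Of 10 myoblast and myotube markers only the troponin gene Tnnc1 was analysed. It was between 110 and 140 FPKM in control and between 21.9 and 24.7 FPKM in OI, so this muscle transcript was present in both groups, at a lower level in OI. Of 30 myogenic differentiation genes 2 were analysed, Tnnc1 and the long intergenic RNA gene H19 (means of 132.6 FPKM in control and 27.4 FPKM in OI). Both were lower in OI (limma adjusted p = 0.000188 for Tnnc1 and 0.00023 for H19), where 2.76% of all 1737 genes tested passed in either direction. None of 8 Schwann cell and neural crest markers, 7 fibroblast markers, 7 osteoblast and osteocyte markers and 5 neuron markers was analysed here. All libraries came from the C2C12 line, and the few Ngfr reads could not be assigned to its myoblasts or its myotubes. In bulk RNA fewer cells with a transcript and less transcript per cell cannot be told apart.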

How the data were processed

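The authors deposited 1 table of FPKM values per library for 3 control and 3 OI libraries. StringTie 1.3.3b, HISAT2 2.1.0, cutadapt 2.7 and build mm10 are named in the submitters' processing notes. No source used here gives the strand setting or the read layout. A second set of 6 samples and the genes numbered after ENSMUSG00000000320 and before ENSMUSG00000083778 were not analysed here. Of 27943 rows 1 had a broken annotation and was left out. Positions matched GENCODE M21 (GRCm38) for 27530 genes.

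Library sizes came from the step of FPKM times gene length in genes of 1 exon, where 100% of values up to 100 reads were within 0.01 of a whole number. Over all genes it was 86.8% to 87.8%.

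Genes with 1 FPKM or more in at least 3 libraries were tested with limma 3.58.1 (R 4.3.3) on log2(FPKM + 1), trend=TRUE, two-sided, Benjamini-Hochberg over all genes tested, and the fit was tested on simulated data. Of the genes below that level only Ngfr had the exact permutation test (SciPy 1.17.1, Python 3.11.15). The 3 genes and the gene lists were chosen with earlier results of these data known, and the range of 10 to 50 reads after the Ngfr values were seen. Named genes were the 3 genes, genes within 100 kb of them, list members with a row, 2 differentiation genes and 2 genes that mark control replicate 1. Genes most like a tested member were to be named too, but no member was tested. Alternatives were other pseudocounts, filters, scalings, trend=FALSE, limma voom on recovered reads, a replicate block, and fits without each library in turn.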

Additional observations from a re-analysis of the deposited data

How the results depend on the processing

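Fgf6 and Fgf23 are 0 in every library, so no alternative gives them another value. The difference of Ngfr was negative in all alternatives run. Because every control library lay above every OI library, other pseudocounts, reads per library size and leaving out 1 library could not change its sign. They also could not give a permutation p other than the smallest possible, so these alternatives are no separate support. The exact permutation p was 0.1 with pseudocounts of 0.1 and 5, with median-of-ratios scaling and on reads per library size (added after seeing the data), and 0.2, the smallest possible, without any 1 library (differences from -0.11 to -0.04). Ngfr had too few reads for the voom fit, was under the filter at 5 FPKM, and was not refitted with quantile normalization or trend=FALSE. The 48 genes called became 14 without a filter and between 15 and 27 without 1 library. Wnt9a, never called, changed sign with median-of-ratios scaling (0.0281) and ran from -0.0688 to 0.0032 without 1 library. The call of Gdf1 was also lost without a filter (limma adjusted p = 0.0757).

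Libraries of equal replicate number deviated together little or not at all (correlations of 0.047, 0.138 and -0.084 for the 3 pairs). With 3 libraries per group this cannot tell whether equal numbers share a culture or a day, and the labels do not say. With the replicate number as a block 17 genes were called, Gdf1 was not (limma adjusted p = 0.138), and the exact paired permutation p of Ngfr was 0.25, the smallest that 3 pairs allow. Not every library correlated best with its own number. The block with no filter, added after seeing the data, gave Ngfr a limma adjusted p of 0.766. Depth limits what can be said of the 3 genes to the levels that 3 reads give, or to higher levels if both ends of a fragment were counted separately.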

Other observations

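Some other weakly covered genes were above 0 in 1 group only. Alox12, a 12-lipoxygenase, was listed at 0 in all 3 control libraries and had a mean of 0.0431 FPKM in OI, where all 3 libraries were above 0. Btbd17 had the opposite pattern, with a mean of 0.0371 FPKM in control and 0 in all 3 OI libraries. Over the 6 libraries Alox12 rests on 11.75 recovered reads and Btbd17 on 9.48. Both were chosen after their values were seen, and neither reached the level needed for the test across genes. Among the 59 protein-coding genes with the lowest identifiers, no gene but Alox12 was above 0 in OI only. Ins2, Clec2g, Wnt3, Cdh1 and Cdh4 were each above 0 in 1 control library and at 0 in OI. How many weakly covered genes beyond these 59 have such a pattern was not counted.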
